A study of Mus musculus with 39 samples.

Results

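Interferon-stimulated genes are described here in mouse duodenum, as 40 gene symbols listed by name and looked up in the deposited table of filtered counts. All 40 were among its 16358 genes, as the rule for this part required. The lowest count of any of them in any of the 39 libraries was 63. Genes absent from that filtered table could not be members, so losses to its filter cannot be seen here. The list was drawn from known biology, but it was chosen with earlier results of these data known. Interest in the pair Apol9a and Apol9b came from those earlier results.

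Per the labels, the animals were male C57BL/6 mice of wild-type genotype aged 8 weeks, all with a cannula into the right lateral brain ventricle and 2 h of food deprivation. They were given plain water, or for 48 h water with 2 antibiotics, ampicillin at 1 g/L and neomycin at 0.5 g/L, and were injected through the cannula with saline or with 3 µg of leptin, a hormone of fat tissue that lowers food intake through the brain. Duodenum was taken 2 h later, and the label gives all its cell types as the sample. There were 6 Leptin-antibiotic, 6 Saline-antibiotic, 13 Leptin-water and 14 Saline-water libraries. Library names are of 2 kinds, here set MT (24 libraries, 6 of each group) and set M (15 libraries, 7 Leptin-water and 8 Saline-water). Antibiotic was given in set MT alone, so comparisons with antibiotic stay within it. The labels number the libraries as replicates but do not say that each is a separate animal, so p-values measure the spread between these samples.

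Cells that sense foreign nucleic acids secrete type I or type III interferon, whose receptors act through JAK kinases on a transcription factor complex that holds STAT2 and IRF9. This complex binds the interferon-stimulated response element (ISRE) in promoters and raises a shared program of sensors, RNA-degrading systems and inhibitors of virus entry and replication. Interferon-gamma acts through a receptor of its own, and guanylate-binding proteins are among its best known targets. In the gut, epithelial cells respond mainly to type III interferon, and resident bacteria are known to influence the resting level of the program.

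Promoter sequences are shown because they give what several members share beside their name, and because they show how alike the Apol9 pair is. Of the 40 members, 30 had an entry in the RefSeq promoter table (GRCm38.p6, 250 bases before to 50 after the start). The core of the ISRE, here GAAA and again GAAA with any 2 bases (NN) between them, was searched on both strands, so the same arrangement of TTTC also counts, and overlapping matches were kept. It was found in 19 of these 30 members (63.3%), against 3.99% of the 27025 genes in the table. The interferon-gamma activated site TTCNNNGAA was found in 8 of the 30 (26.7%), against 9.55% of the genes. A match is a description of the letters and not proof of a site. Capitals mark ISRE core matches in the sequences that follow, which are written 5′ to 3′ on the strand of the gene and stand for the Apol9 pair, the OAS genes called with antibiotic and 4 well known members.
Apol9a, the 250 bases before the start, chr15:77411081-77411330, minus strand: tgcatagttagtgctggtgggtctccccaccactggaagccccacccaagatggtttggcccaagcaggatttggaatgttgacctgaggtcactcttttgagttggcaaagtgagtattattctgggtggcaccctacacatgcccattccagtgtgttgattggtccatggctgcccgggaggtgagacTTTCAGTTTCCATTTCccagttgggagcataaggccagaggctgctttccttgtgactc
Apol9b, chr15:77729027-77729056, plus strand: ggtgagacTTTCAGTTTCCATTTCccagtt
Oas1a, chr5:120907524-120907553, minus strand: cttctcggGAAATGGAAACTGAAAatctac
Oas1g, chr5:120887610-120887639, minus strand: cttctcggGAAATGGAAACTGAAAatctac
Oas3, chr5:120777713-120777742, minus strand: agggaggaGAAAACGAAAgtgaagggaggt
Isg15, chr4:156200865-156200894, minus strand: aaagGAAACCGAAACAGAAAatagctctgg
Ifit1, chr19:34640794-34640823, plus strand: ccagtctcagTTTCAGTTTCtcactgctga
Rsad2, chr12:26456551-26456580, minus strand: ggtccaacTTTCATTTTCagaaaacagaaa
Gbp2, chr3:142620596-142620625, plus strand: tcttttagTTTCACTTTCactgtcttaagc

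The promoters of Apol9a and Apol9b were the same at all 278 bases of the best ungapped overlap of their table entries, and both hold the same 2 overlapping ISRE cores. The genes lie on chromosome 15 of GRCm38 (GENCODE vM21), Apol9a from 77403789 to 77411135 on the minus strand and Apol9b from 77729039 to 77736382 on the plus strand. Their transcripts Apol9a-201 and Apol9b-204 matched at 98.5% of aligned bases. Reads were 50 bases long, and 57.5% of the 50-base stretches of the longest Apol9a transcript also occur in Apol9b. The split of reads between the pair is therefore uncertain, and their summed level is also given further below. The 30-base stretches printed for Oas1a and Oas1g are also letter for letter the same, and 57.6% of the 50-base stretches of Oas1a occur in Oas1g. Shares of at least 50% were found in 6 members in all, the others being Ifit3 (with Ifit3b) and Gbp6 (with the unnamed gene Gm43302). The exons of 15 members overlap another gene, in 10 cases on the opposite strand. Parp9 and Dtx3l overlap each other in this way, and the strand setting of the counting is not given in the sources used here.

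Library totals were 30207536 to 67870777 counts (median 48282125). Levels are in CPM, counts divided by a library size that TMM scaling had corrected, and comparisons use edgeR's quasi-likelihood F test with Benjamini-Hochberg adjustment over all genes tested. A member is called at an adjusted p under 0.05. Absorptive enterocyte markers summed to 18910 to 42820 CPM over the 39 libraries. Exocrine pancreas markers stood apart in 6 libraries (Leptin-antibiotic 3, Saline-antibiotic 1, 2 and 5, and Leptin-water 6 and 10), with a mean of at least 4.91 log2 CPM against at most 3.07 in the others. The library Leptin-antibiotic 2 stood apart in the members themselves. It was the highest of its 6 libraries for 37 of the 40 genes, and the main results that rest on it are given with and without it. Because members moved together between libraries, counts of members that were positive or called are not counts of independent results.

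With antibiotic in leptin-injected mice, 5 of the 40 members were higher in Leptin-antibiotic than in Leptin-water duodenum and none was lower, where 2.28% of all genes tested were called and 1.85% were called higher. At an unadjusted p under 0.05 there were 22 members, against 18.9% of all genes. A positive log2 fold change was found for 36 members, against 47.8% of all genes. The 5 called were Apol9b, Apol9a, Oas3, Oas1a and Oas1g, and the median log2 fold change of the 40 was 0.46. The count of calls changed with single libraries left out. Without Leptin-antibiotic 2 only Apol9b stayed called, at 0.557% of all genes, with 34 members positive and a median of 0.28. The count was also 1 without Leptin-water 9 or Leptin-water 11. It was 2 without Saline-water 12, Leptin-water 10, Leptin-water 13, Leptin-antibiotic 3 or Leptin-antibiotic 4. It was 3 without Saline-water 9, 10, 11 or 14, Saline-antibiotic 2, 4 or 5, or Leptin-antibiotic 6. The count was 8 without Saline-water 13 or Leptin-antibiotic 1, and 16 without Leptin-antibiotic 5, which was the lowest library of its group for 35 members. Of these fits, the share of all genes called is given only for the one without Leptin-antibiotic 2. For the others it is thus not shown whether calls changed for members alone or for all genes.

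Apol9a and Apol9b encode apolipoprotein L-like proteins of mouse that are induced by interferon. Apol9b was at 14.2, 64.2, 26.95, 23.99, 7.87 and 21.7 CPM in Leptin-antibiotic libraries 1 to 6. In the 6 Leptin-water libraries of set MT (8 to 13) it was at 10.8, 4.94, 5.39, 4.525, 9.62 and 6.05 CPM. Thus 5 of the 6 Leptin-antibiotic libraries lay above every Leptin-water library, and the other was inside their range. The log2 fold change was 1.95 (SE 0.39, adjusted p = 0.0100), and 1.47 without Leptin-antibiotic 2 (adjusted p = 0.0426). Apol9a was at 24.1, 103, 35.9, 41.2, 13.4 and 33.1 CPM in Leptin-antibiotic libraries 1 to 6. In Leptin-water libraries 8 to 13 it was at 21.5, 7.95, 14.9, 9.54, 16.2 and 11.3 CPM. Again 5 of 6 lay above all Leptin-water libraries, and library 5 overlapped them. The log2 fold change was 1.63 (SE 0.36, adjusted p = 0.0164). Its adjusted p was 0.0704 without Leptin-antibiotic 2, where the log2 fold change was 1.13, 0.0701 without Leptin-water 9 and 0.0528 without Leptin-water 11. All 6 Leptin-antibiotic libraries lay above all Leptin-water ones for 0 of the 40 members, against 1.83% of all genes. For partial separations, here and below, the share of all genes is not given.

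**Figure D1:**
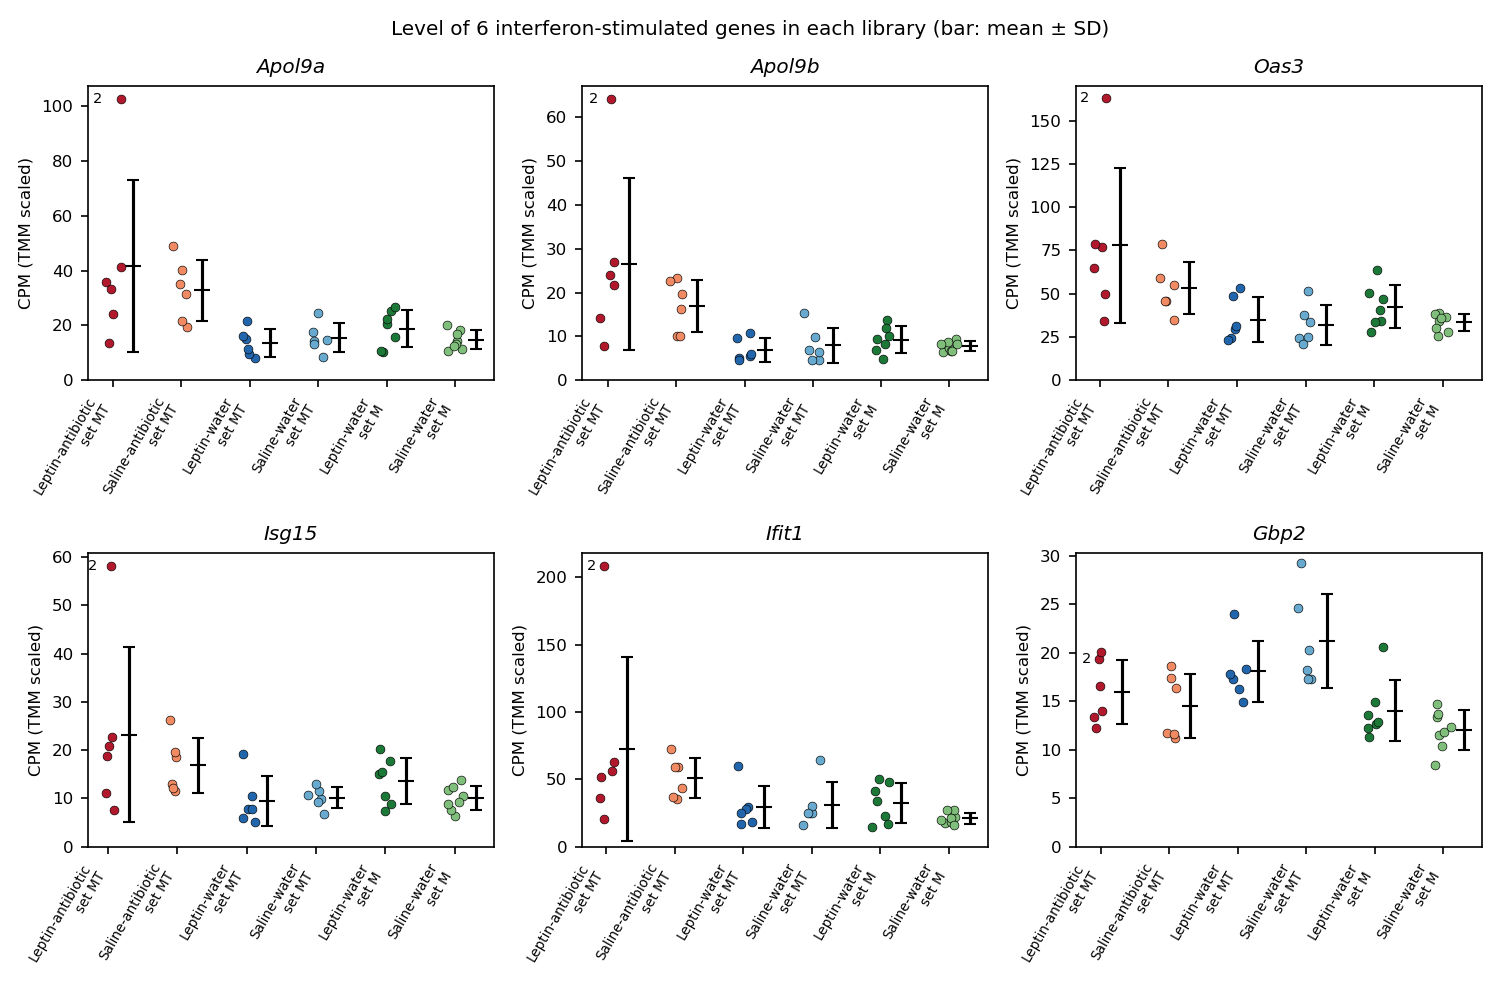
Level in CPM (vertical axis, linear) of 6 members in each library (points), by group and set (horizontal axis), with the mean and SD beside them. The point marked 2 is the library Leptin-antibiotic 2, at 103 CPM for Apol9a and 208 CPM for Ifit1, and for Gbp2 it lies within its group.

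The 2′-5′ oligoadenylate synthetases (OAS) sense double-stranded RNA and activate RNase L, which degrades RNA. The family as counted here has 6 members and takes in the OAS-like genes Oasl1 and Oasl2. All 6 had a positive log2 fold change with antibiotic in leptin-injected mice, from 0.47 to 1.165, and 3 of the 6 were called. Oas3 ranged from 34.4 to 163 CPM (median 70.8) in Leptin-antibiotic and from 23.05 to 53.2 CPM (median 30.4) in Leptin-water libraries of set MT. In 4 of 6 Leptin-antibiotic libraries it exceeded all Leptin-water ones, with a fitted log2 fold change of 1.165 (SE 0.30, adjusted p = 0.0387). Oas1a ranged from 16.8 to 70.5 CPM (median 35.7) in Leptin-antibiotic and from 12.3 to 30.15 CPM (median 16.7) in Leptin-water libraries, a fitted log2 fold change of 1.00 (SE 0.27, adjusted p = 0.0454). Its neighbour Oas1g gave 1.08 (SE 0.29, adjusted p = 0.0462). Each of these 3 also had 4 of 6 Leptin-antibiotic libraries above all Leptin-water ones. Without Leptin-antibiotic 2 their log2 fold changes were 0.81, 0.71 and 0.76, and the lowest adjusted p among them was 0.143. Leaving out 1 library at a time ended the call of Oas3 in 9 of 24 cases, of Oas1a in 16 and of Oas1g in 17. Oas2 had a median of 7.89 CPM in Leptin-antibiotic and 3.90 CPM in Leptin-water libraries. It gave a fitted log2 fold change of 0.94 (SE 0.38, adjusted p = 0.178), and 0.45 without Leptin-antibiotic 2. All 6 of the family remained positive without that library, from 0.26 to 0.81.

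Isg15, the ubiquitin-like modifier that is joined to proteins during the response, ranged from 7.65 to 58.2 CPM (median 19.8) in Leptin-antibiotic libraries. In Leptin-water libraries of set MT it ranged from 5.06 to 19.2 CPM (median 7.72), and 3 of the 6 Leptin-antibiotic libraries exceeded all of these. Its fitted log2 fold change was 1.32 (SE 0.37) and missed the threshold with an adjusted p of 0.0544. Usp18, the protease that removes ISG15 and damps receptor signalling, gave 1.19 (SE 0.34, adjusted p = 0.0576). Without Leptin-antibiotic 2 the values were 0.80 for Isg15 (adjusted p = 0.208) and 0.67 for Usp18 (adjusted p = 0.234).

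Among 10 antiviral effectors all log2 fold changes were positive in leptin-injected mice, from 0.25 to 1.30, and none was called. Ifit1, which binds viral RNA that lacks the host cap mark, was at 20.7 to 208 CPM (median 53.7) in Leptin-antibiotic libraries. It was at 16.5 to 60 CPM (median 26.65) in Leptin-water libraries, and only 2 Leptin-antibiotic libraries exceeded all of these. The log2 fold change was 1.30 (SE 0.42, adjusted p = 0.0896) and 0.63 without Leptin-antibiotic 2. Rsad2 (viperin, which makes a chain-terminating nucleotide) gave 1.30 (SE 0.41, adjusted p = 0.08075). Bst2 (tetherin, which holds budding virus at the cell surface) gave 0.46 (SE 0.31, adjusted p = 0.432). Without Leptin-antibiotic 2 these were 0.72 for Rsad2 and 0.32 for Bst2, and the 10 effectors ranged from -0.02 to 0.72, with 9 positive.

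The 5 nucleic acid sensors had log2 fold changes of 0.17 to 0.85 in the same comparison, all positive and none called. Dhx58, the RIG-I relative LGP2, gave the highest of them, and Eif2ak2, the kinase PKR that stops translation, gave the lowest. Without Leptin-antibiotic 2 the sensors ranged from -0.10 to 0.50, with 4 of 5 positive, at 0.50 for Dhx58 and 0.03 for Eif2ak2. The 4 transcription factors ranged from -0.03 to 0.62. Irf7, which amplifies the type I interferon response, had a median of 71.35 CPM in Leptin-antibiotic and 47.55 CPM in Leptin-water libraries and gave 0.62 (SE 0.22, adjusted p = 0.1185). Irf9, the DNA-binding subunit of the STAT complex, gave 0.17 (SE 0.09, adjusted p = 0.300). Parp9, Parp12, Parp14 and Dtx3l, which modify proteins with ADP-ribose or ubiquitin, gave 0.17 to 0.43, with none called. Without Leptin-antibiotic 2 Irf7 gave 0.41, Irf9 0.11 and the last 4 genes 0.05 to 0.29.

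Of the 4 guanylate-binding proteins, large GTPases that coat intracellular pathogens, 3 had a negative log2 fold change in leptin-injected mice. The range was -0.17 to 0.25 with none called, and -0.45 to 0.03 without Leptin-antibiotic 2. Gbp2 ranged from 12.25 to 20.1 CPM in Leptin-antibiotic and from 14.9 to 24.02 CPM in Leptin-water libraries, with a fitted log2 fold change of -0.17 (SE 0.16, adjusted p = 0.597).

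In saline-injected mice, 0 of the 40 members were called with antibiotic by edgeR and 0 by DESeq2, where 0.196% of all genes were called by edgeR. At an unadjusted p under 0.05 there were 6, against 12.5% of all genes. Without Leptin-antibiotic 2, which enters this comparison only through the shared estimate of the spread, there were 14, against 12.3% of all genes. A positive log2 fold change was found for 30 members, against 51.8% of all genes, and the median of the 40 was 0.20. Apol9a was at 19.3, 35.15, 40.3, 49.05, 31.3 and 21.7 CPM in Saline-antibiotic libraries 1 to 6. In the 6 Saline-water libraries of set MT (9 to 14) it was at 17.6, 14.4, 8.35, 13.3, 24.55 and 14.8 CPM. Of the 6 Saline-antibiotic libraries, 4 lay above all of these, and the log2 fold change was 1.09 (SE 0.35, adjusted p = 0.194). Apol9b was at 9.96, 23.2, 16.25, 22.6, 19.7 and 9.98 CPM in the same Saline-antibiotic libraries. It was at 4.53, 6.47, 4.625, 6.78, 15.2 and 9.93 CPM in Saline-water libraries 9 to 14. Here too 4 of 6 were above all, with a fitted log2 fold change of 1.11 (SE 0.38, adjusted p = 0.231).

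Gbp2 had the lowest unadjusted p of the members in saline-injected mice, and its direction was opposite to that of Apol9. It ranged from 11.25 to 18.7 CPM (median 14.05) in Saline-antibiotic and from 17.3 to 29.3 CPM (median 19.3) in Saline-water libraries of set MT. Of the Saline-antibiotic libraries, 4 of 6 were below all Saline-water libraries, with a fitted log2 fold change of -0.54 (SE 0.16, adjusted p = 0.159). Isg15 gave 0.74 (SE 0.36, adjusted p = 0.407), Ifit1 0.74 (SE 0.42, adjusted p = 0.469), Oas2 0.40 (SE 0.38, adjusted p = 0.694) and Irf7 0.17 (SE 0.22, adjusted p = 0.781). Dhx58 was the only one of the 40 whose 6 Saline-antibiotic libraries all exceeded the 6 Saline-water ones, at 8.70 to 16.15 CPM against 6.31 to 8.53 CPM, and was picked out after its values were seen. Such a separation was found for 0.397% of all genes. Dhx58 was not called, with a fitted log2 fold change of 0.49 (SE 0.26, adjusted p = 0.440).

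**Figure D2:**
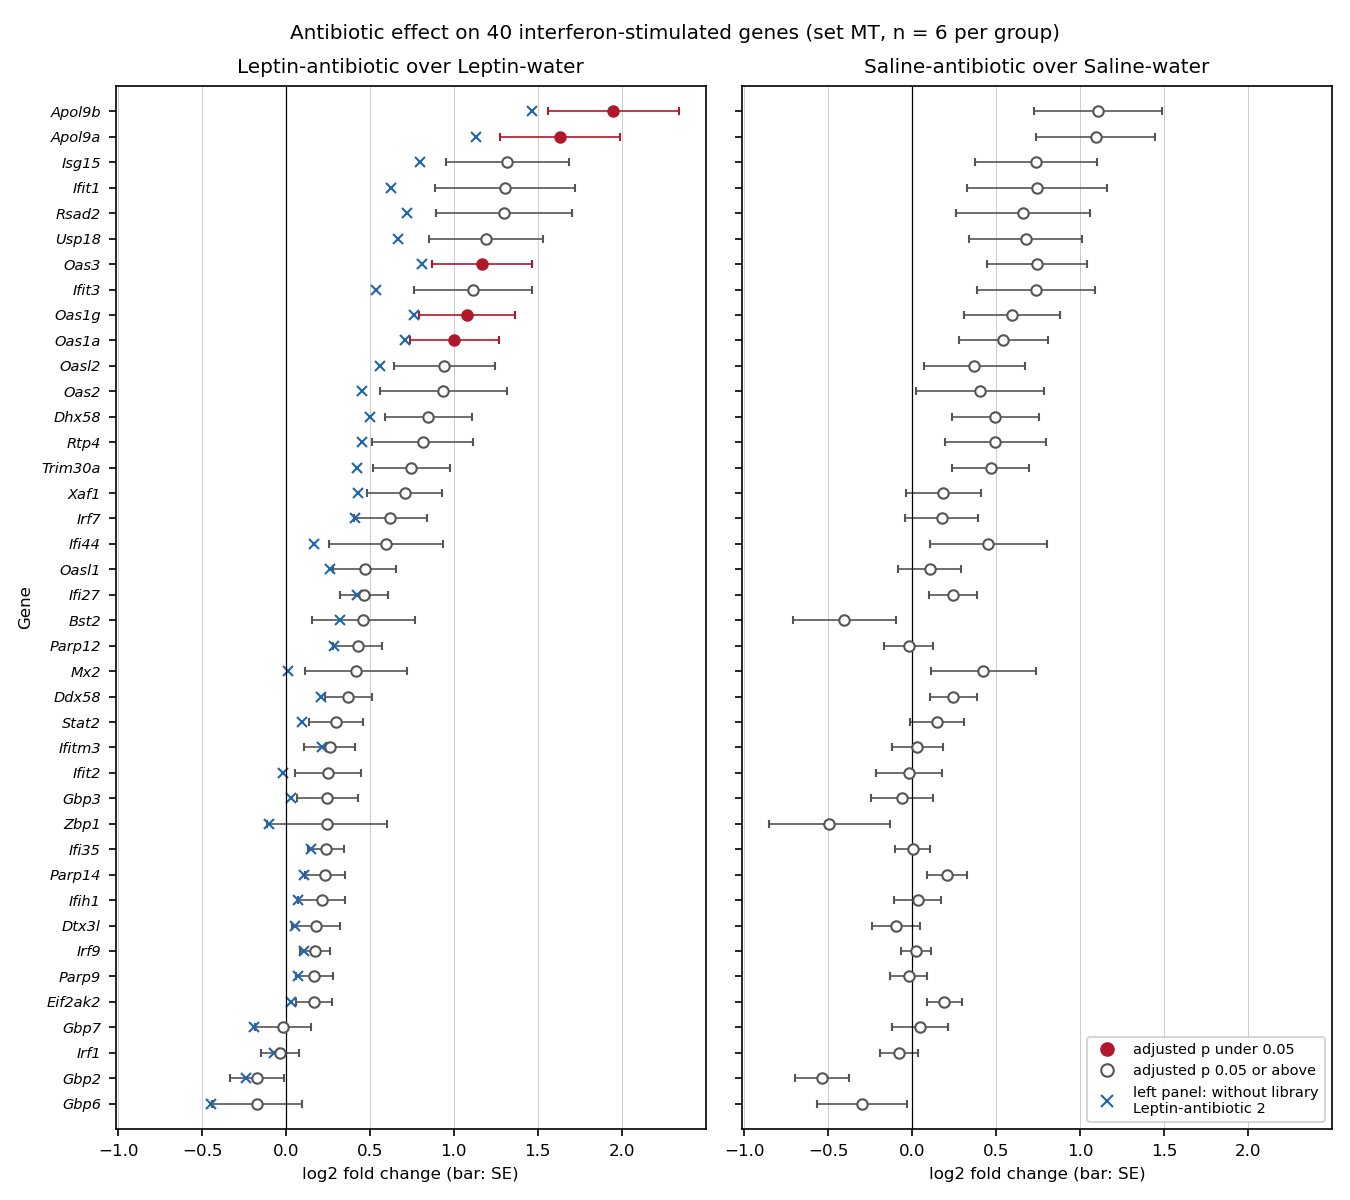
Log2 fold change (horizontal axis, bars are SE) of the 40 members with antibiotic, in leptin-injected mice on the left and saline-injected mice on the right. Filled red points are the 5 called members, and crosses on the left give the value without the library Leptin-antibiotic 2. Apol9b and Apol9a are at the top of both panels.

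An antibiotic effect called under 1 injection and not under the other is not shown to differ between them. That difference is the same contrast as the leptin effect on antibiotic minus the leptin effect on water. It called 0 of the 40 members by edgeR and 0 by DESeq2, and 0% of all genes by edgeR, with 1 member at an unadjusted p under 0.05, against 6.38% of all genes. The difference was positive for 37 members, against 49.2% of all genes, with a median of 0.34. Without Leptin-antibiotic 2 it was positive for 27, with a median of 0.06. The member with the lowest p was Parp12, at 0.45 (SE 0.21, adjusted p = 0.772), named after its value was seen, and was 0.31 for this gene without Leptin-antibiotic 2. For Apol9a the difference was 0.54 (SE 0.49, adjusted p = 0.818), and 0.04 without Leptin-antibiotic 2. For Apol9b it was 0.84 (SE 0.54, adjusted p = 0.776), and 0.36 without that library.

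Averaged over both injections, the 12 antibiotic libraries against the 12 water libraries of set MT gave 13 members higher and none lower, where 6.45% of all genes were called and 4.24% were called higher. At an unadjusted p under 0.05 there were 24 members, against 22.8% of all genes, and 36 were positive, against 49.7%. This contrast was added after the others had been seen. Apol9b led with a fitted log2 fold change of 1.53 (SE 0.27, adjusted p = 0.00161), followed by Apol9a with 1.36 (SE 0.25, adjusted p = 0.00200) and Isg15 with 1.03 (SE 0.26, adjusted p = 0.0183). Oas3 (0.95), Oas1g (0.84) and Oas1a (0.77) of the OAS family were called. So were Ifit1 (1.02), Rsad2 (0.98), Ifit3 (0.93) and Trim30a (0.61) of the effectors, along with Usp18 (0.93), Dhx58 (0.67) and Ifi27 (0.35). Without Leptin-antibiotic 2 there were 8, namely Apol9b (1.29, adjusted p = 0.00274), Apol9a (1.11), Oas3 (0.78), Isg15 (0.77), Oas1g (0.68), Usp18 (0.67), Oas1a (0.63) and Trim30a (0.45), where 4.27% of all genes were called. The count was 7 without Leptin-water 9, and 8 without Leptin-water 11 or without Saline-antibiotic 4. For these last fits the share of all genes called is not given. All 4 guanylate-binding proteins missed the threshold in this contrast, Gbp2 at -0.35 (SE 0.11, adjusted p = 0.0607).

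Levels of cell type markers differed in sign between lists under antibiotic. Of all genes, 47.8% were positive and 2.28% were called in leptin-injected mice, and 51.8% and 0.196% in saline-injected mice. Enterocyte markers were positive for 12 of 12 genes in leptin-injected mice (1 called, Apoa4 at 0.70, or 0.57 with an adjusted p of 0.143 without Leptin-antibiotic 2), and their summed level was 28390 to 42820 CPM in Leptin-antibiotic and 21710 to 31540 CPM in Leptin-water libraries of set MT. In saline-injected mice 12 of 12 were positive as well, at 18910 to 31290 CPM in Saline-antibiotic and 18970 to 28100 CPM in Saline-water libraries. T cell markers were positive for 0 of 10 genes under either injection, with sums of 109.6 to 228 CPM in Leptin-antibiotic and 139.4 to 211 CPM in Leptin-water libraries. In saline-injected mice they summed to 84.0 to 230.4 CPM in Saline-antibiotic and 130.0 to 276 CPM in Saline-water libraries. Macrophage and dendritic cell markers were positive for 1 of 12 in leptin-injected and 0 of 12 in saline-injected mice. They summed to 196 to 306 CPM in Leptin-antibiotic and 229 to 309.7 CPM in Leptin-water libraries, and to 177 to 287 CPM in Saline-antibiotic and 227.5 to 336 CPM in Saline-water libraries. No marker of these 3 lists was at 0 in any library. Smooth muscle markers were positive for 8 of 8 genes under either injection. They summed to 1406 to 2090 CPM in Leptin-antibiotic and 907.9 to 1802 CPM in Leptin-water libraries, and 1 was called in leptin-injected mice, Actg2 at 0.72 (adjusted p = 0.0131). B and plasma cell markers were positive for 0 of 7 genes in leptin-injected and 3 of 7 in saline-injected mice, with 1 called in leptin-injected mice, Ms4a1 at -2.05 (adjusted p = 0.00742). Exocrine pancreas markers were positive for 18 of 18 genes under either injection, with a median of 0.90 (log2) in leptin-injected and 3.28 in saline-injected mice. Paneth cell markers were positive for 1 of 7 genes in leptin-injected and 6 of 7 in saline-injected mice. Stomach and Brunner gland markers were positive for 4 of 10 in leptin-injected and 10 of 10 in saline-injected mice, and plasmacytoid dendritic cell markers for 2 of 7 in leptin-injected and 4 of 7 in saline-injected mice. In bulk tissue, fewer cells of a type and less RNA per cell cannot be told apart, and the part of these cell types in the members' values was not tested. With the 6 libraries high for pancreas markers left out, 2 members were called in leptin-injected mice, and 205 genes in all, against 372 genes with all libraries.

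Leptin in mice on antibiotic called 0 of the 40 members by edgeR and 0 by DESeq2, where 0.514% of all genes were called by edgeR, and 3 had an unadjusted p under 0.05, against 17.2% of all genes. This comparison shares the Leptin-antibiotic libraries with the antibiotic comparison in leptin-injected mice. Of the 40, 37 were positive (46.4% of all genes), with a median log2 fold change of 0.27. Without Leptin-antibiotic 2 the number positive was 19 and the median -0.01. Apol9a gave 0.36 (SE 0.35, adjusted p = 0.617), and -0.14 without Leptin-antibiotic 2. Apol9b gave 0.65 (SE 0.37, adjusted p = 0.371), and 0.17 without it. The 3 lowest unadjusted p belonged to Irf9 (0.26, SE 0.09, adjusted p = 0.1545), Ifi27 (0.41, SE 0.14, adjusted p = 0.162) and Ifi35 (0.29, SE 0.11, adjusted p = 0.173). Irf9 ranged from 41.6 to 62.0 CPM (median 51.4) in Leptin-antibiotic and from 37.75 to 48.4 CPM (median 43.4) in Saline-antibiotic libraries. The examples Isg15 (0.47), Ifit1 (0.51), Irf7 (0.41), Oas2 (0.46) and Gbp2 (0.14) all had an adjusted p of at least 0.327. Without Leptin-antibiotic 2 the sign turned for Isg15 (-0.05), Ifit1 (-0.16) and Oas2 (-0.02), while Irf7 gave 0.20, Gbp2 0.08, Irf9 0.20, Ifi27 0.36 and Ifi35 0.20. Enterocyte markers were positive for 12 of 12 genes in this comparison also, with a median of 0.34. Smooth muscle markers were positive for 0 of 8, Paneth cell markers for 0 of 7 and exocrine pancreas markers for 0 of 18. T cell markers were positive for 6 of 10 and macrophage and dendritic cell markers for 8 of 12. The part of these lists in the members' values was not tested.

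Leptin in mice on water called 0 of the 40 members by edgeR and 0 by DESeq2 in a fit of 27 water libraries that held set as a covariate, where 0.312% of all genes were called by edgeR. An unadjusted p under 0.05 was found for 4, against 11.4% of all genes, and 32 were positive, against 47.1% of all genes, with a median log2 fold change of 0.10. Ifi44, an interferon-induced protein of uncertain mechanism, had the lowest p, with 0.39 (SE 0.14, adjusted p = 0.220). It was followed by Irf9 (0.13, SE 0.05, adjusted p = 0.312) and Eif2ak2 (0.13, SE 0.05, adjusted p = 0.325). Apol9a gave 0.11 (SE 0.17, adjusted p = 0.858) and Apol9b 0.06 (SE 0.18, adjusted p = 0.933). Isg15 (0.19), Ifit1 (0.32), Irf7 (0.08), Oas2 (0.12) and Gbp2 (0.02) were no nearer the threshold than an adjusted p of 0.619.

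The sets gave different counts of positive members for leptin on water when fitted apart. In set MT 15 of 40 were positive (47.2% of all genes), with a median of -0.06 and 0 members at an unadjusted p under 0.05, against 6.49% of all genes. In set M 38 of 40 were positive (48.3% of all genes), with a median of 0.21 and 10 members at an unadjusted p under 0.05, against 14.9% of all genes. Neither set called a member, where 0.0491% of all genes were called in set MT and 0.0306% in set M. Apol9a gave -0.19 (SE 0.25) in set MT and 0.34 (SE 0.20) in set M, and Apol9b -0.20 (SE 0.30) in set MT and 0.26 (SE 0.17) in set M. In set M, Apol9a ranged from 10.3 to 26.7 CPM (median 20.5) in Leptin-water and from 10.8 to 20.2 CPM (median 13.8) in Saline-water libraries, with 4 of 7 Leptin-water libraries above all Saline-water ones and 2 below all. Tested directly, the leptin effect in set MT minus that in set M called 0 members by edgeR and 0 by DESeq2, where 0.0428% of all genes were called by edgeR. There were 6 members at an unadjusted p under 0.05, against 9.86% of all genes. The difference was positive for 2 and negative for 38 of 40, with a median of -0.25, where 51.8% of all genes were positive. It was -0.52 for Apol9a (SE 0.34, adjusted p = 0.650) and -0.45 for Apol9b (SE 0.35, adjusted p = 0.725). In set MT, Leptin-water 8 and Saline-water 13 were each the highest of their group for 34 members. Without Leptin-water 8 the difference was -0.72 for Apol9a and -0.64 for Apol9b. Without Saline-water 13 it was -0.36 and -0.18. Counts of positive members without either library are not given.

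**Figure D3:**
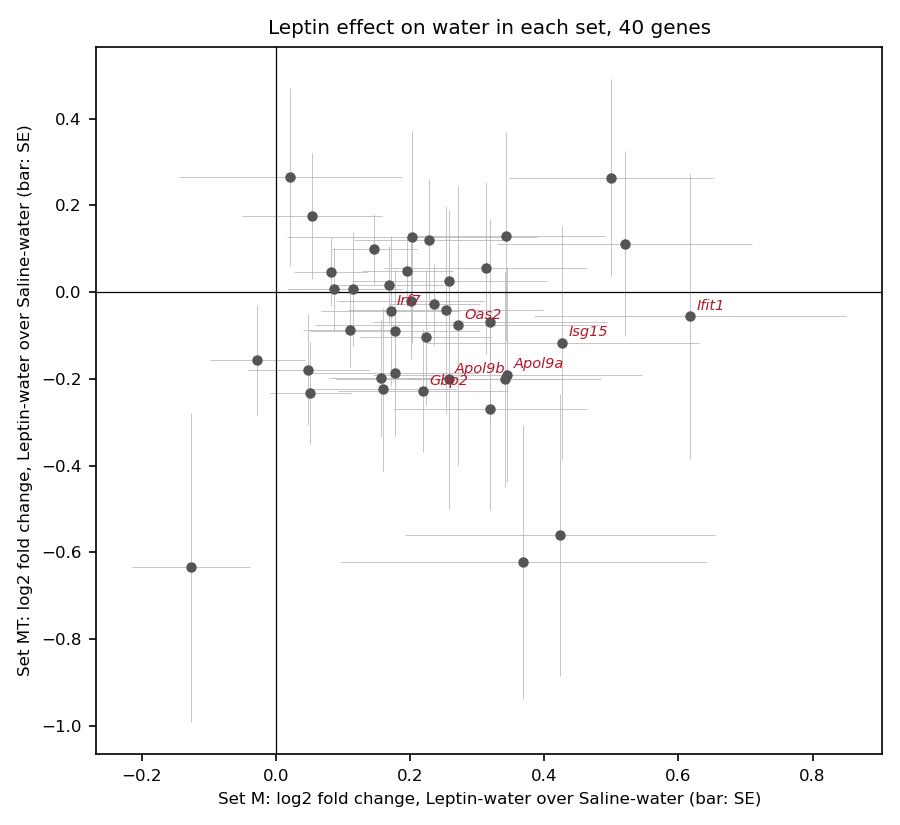
Log2 fold change of Leptin-water over Saline-water for the 40 members, in set MT on the vertical and in set M on the horizontal axis (bars are SE). In set M 38 points lie right of 0, and in set MT 15 lie above 0.

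Saline-water libraries of set MT and of set M differed for some members. Set cannot be told apart from any batch that follows it. Between the sets, 4 members were higher in set MT and 1 was lower, where 17.3% of all genes were called, 8.28% higher and 8.97% lower. Counted in either direction, members were thus not called more often than all genes. Gbp2 ranged from 17.3 to 29.3 CPM (median 19.3) in the 6 set MT libraries and from 8.38 to 14.75 CPM (median 12.1) in the 8 set M libraries, which did not overlap. Of all genes, 1.77% lay wholly above in set MT in this way. Its fitted log2 fold change was 0.81 (SE 0.14, adjusted p = 0.000205). Gbp6 (0.58, adjusted p = 0.0457), Ifit2 (0.49, adjusted p = 0.0142) and Gbp3 (0.40, adjusted p = 0.0314) were also higher, and Ifi27 was lower (-0.36, adjusted p = 0.0483). With 1 library left out at a time, the call of Gbp6 was lost in 10 of 27 cases and that of Ifi27 in 21. Apol9a (0.06, SE 0.24, adjusted p = 0.887) and Apol9b (0.03, SE 0.25, adjusted p = 0.954) were not called. The dendritic and macrophage markers C1qa (0.52), C1qb (0.55) and Clec9a (0.44) were higher in set MT as well. Of their list 12 of 12 were positive, against 50.4% of all genes. These markers summed to 227.5 to 336 CPM in set MT and 199 to 250.2 CPM in set M. Other lists differed between the sets too. Stomach and Brunner gland markers were positive for 0 of 10 genes (median -1.455), with Tff1 called lower (-2.31). Exocrine pancreas markers were positive for 16 of 17 (median 2.29, 0 called). Paneth cell markers were positive for 0 of 7, enterocyte markers for 3 of 12 and T cell markers for 7 of 10. The part of any of these lists in the guanylate-binding protein levels was not tested. The number of members called was 2 without Saline-water 3, 7 or 13, 3 without Saline-water 8 or 12, and 8 without Saline-water 10. The share of all genes called in these fits is not given, so a change in members alone is not shown.

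Between libraries of a group, members varied more than the median gene. Within a set and group the SD of log2 CPM had a median of 0.35 over the 40 members, against 0.19 over all genes. It was highest for Rsad2 (0.70), Ifit1 (0.67) and Zbp1 (0.62), the last a sensor of Z-form nucleic acid that starts necroptosis. It was lowest for Irf9 (0.15), Ifi35 (0.17) and Eif2ak2 (0.17). The highest library was often the same one for many members. Leptin-antibiotic 2 was highest for 37 of 40, Leptin-water 8 and Saline-water 13 for 34 each in set MT, and Saline-antibiotic 4 for 28. In set M the leading libraries were Leptin-water 2, highest for 21, and Saline-water 4, highest for 15. Leptin-antibiotic 2 had a total of 45839800 counts and a share of 6.98% in the ribosomal RNA gene Rn45s, inside the 30207536 to 67870777 counts and the 2.87% to 13.3% of the whole table. Its enterocyte sum of 42820 CPM was the highest of its group, while its T cell sum was 147 CPM and its macrophage and dendritic cell sum 228 CPM, against group medians of 139 and 219 CPM. In Saline-water 13 both immune sums were the highest of the group, at 276 and 336 CPM.

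For the summed Apol9 pair the single high library was Leptin-antibiotic 2, at 167 CPM, against 21.3 to 65.2 CPM in the other 5 libraries of its group. The sum was 29.3 to 71.7 CPM in Saline-antibiotic, 12.9 to 32.3 CPM in Leptin-water and 13.0 to 39.8 CPM in Saline-water libraries of set MT. In set M it was 15.4 to 39.04 CPM in Leptin-water and 17.1 to 28.5 CPM in Saline-water libraries. The ratio of Apol9a to Apol9b counts was 1.60 in Leptin-antibiotic 2 and between 1.33 and 3.89 over the 39 libraries, and the library was the highest of its group for both. On the CPM scale the 16 other members with the same library outlying were Isg15, Usp18, Ifit1, Ifit3, Rsad2, Rtp4, Trim30a, Oas2, Oas3, Oasl1, Oasl2, Stat2, Ifih1, Gbp3, Gbp7 and Xaf1. On log2 CPM the library was outlying for Stat2 alone.

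**Figure D4:**
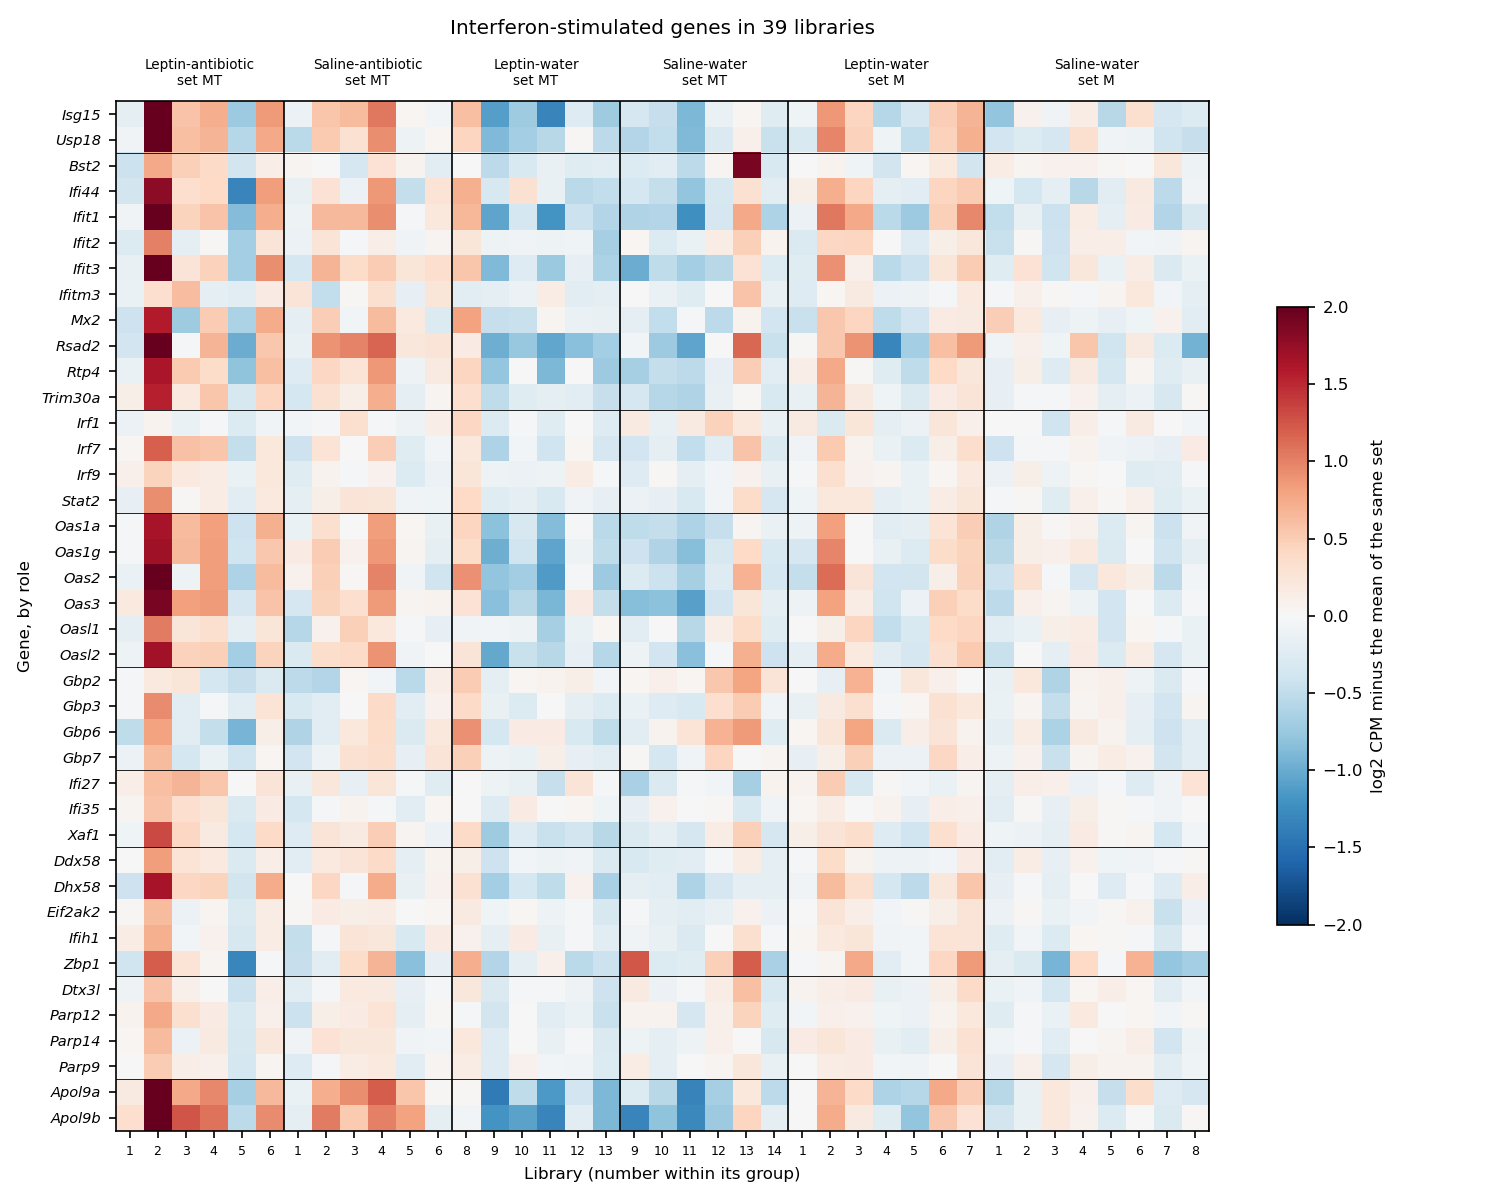
Log2 CPM of each member (rows, by role) in each library (columns, by group and set), minus the gene's mean over the libraries of the same set. Red is above and blue below that mean, with colours ending at 2 units. The column of Leptin-antibiotic 2 is red for nearly all rows, and Saline-water 13 and Leptin-water 8 are red for most.

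Apol9a and Apol9b followed each other with a Pearson correlation of 0.89 over the 24 libraries of set MT and 0.88 over the 15 of set M, after the mean of each set and group was taken off their log2 CPM. Shared reads can add to this. Outside the list, the 6 genes most like the summed pair by the same measure in set MT were Herc6 (0.92), Cmpk2 (0.90), Ddx60 (0.89), Ifit1bl1 (0.88), Trim34b (0.87) and Trafd1 (0.85). Without Leptin-antibiotic 2 and 5 the values were 0.71 to 0.83, and in set M they were 0.49 to 0.81. The values describe these libraries. Herc6, an E3 ligase for ISG15 in mouse, ranged from 15.4 to 92.35 CPM in Leptin-antibiotic and from 17.4 to 39.01 CPM in Leptin-water libraries, and gave a fitted log2 fold change of 0.78 (SE 0.32, adjusted p = 0.183), and 0.37 without Leptin-antibiotic 2.

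The wider interferon pathway was taken from lists of genes outside the 40. Of 10 interferon ligand genes only Ifnk was in the table. It was at 1.21 to 2.79 CPM in Leptin-antibiotic and at 2.26 to 3.33 CPM in Leptin-water libraries, with a fitted log2 fold change of -0.27 (SE 0.17, adjusted p = 0.399). Of 16 receptor and JAK-STAT genes, 0 were called in either antibiotic comparison by edgeR, with 4 at an unadjusted p under 0.05 in leptin-injected mice (18.9% of all genes) and 3 in saline-injected mice (12.5% of all genes). Il10rb, a subunit of the type III interferon receptor that also serves interleukin-10, was higher in Leptin-antibiotic than in Saline-antibiotic libraries (0.41, SE 0.08, adjusted p = 0.0160), where 0.514% of all genes were called, and had an adjusted p of 0.0558 without Leptin-antibiotic 2. Of 62 other interferon-stimulated genes measured, 1 was called with antibiotic in leptin-injected mice, the helicase-like Znfx1 (0.31, SE 0.08, adjusted p = 0.0387), where 2.28% of all genes were called. Without Leptin-antibiotic 2 it gave 0.24 with an adjusted p of 0.119. In saline-injected mice 0 of the 62 were called by edgeR. At an unadjusted p under 0.05 there were 20 of the 62 in leptin-injected mice, against 18.9% of all genes, and 10 in saline-injected mice, against 12.5%. A positive log2 fold change was found for 38 of the 62 in leptin-injected mice, against 47.8% of all genes, with a median of 0.10. In saline-injected mice 35 were positive, against 51.8% of all genes, with a median of 0.03. Averaged over both injections, 5 of the 62 were higher, namely Ddx60 (0.86), Cmpk2 (0.81), Oas1b (0.74), Oas1c (0.47) and Nmi (0.28), where 4.24% of all genes were called higher. The 2 that were lower were the GTPases Iigp1 (-0.70) and Gbp4 (-0.37), both known targets of interferon-gamma, where 2.22% of all genes were called lower. Without Leptin-antibiotic 2 the adjusted p was 0.0713 for Cmpk2, 0.0520 for Oas1b and 0.0508 for Gbp4. Between the sets in Saline-water libraries, 13 of the 62 were higher and 5 lower in set MT, where 8.28% of all genes were called higher and 8.97% lower. Of 15 interferon-gamma chemokine and antigen processing genes, 7 were positive with antibiotic over both injections, against 49.7% of all genes. The 1 called, where 6.45% of all genes were called, was Ciita, the regulator of class II antigen presentation. It was lower (-0.49, adjusted p = 0.0232). Of 17 genes of nucleic acid sensing upstream of interferon, 9 were positive in the same contrast, against the same 49.7% of all genes. The 1 called, against the same 6.45%, was Tlr7, an endosomal RNA sensor, which was lower (-0.50, adjusted p = 0.00827). Of the macrophage and dendritic cell markers, Clec9a (-0.45), Adgre1 (-0.39) and Lyz2 (-0.35) were called lower in the same contrast. Without Leptin-antibiotic 2 the adjusted p was 0.0594 for Adgre1 and 0.0655 for Lyz2. Of all 12 in that list, 1 was positive with antibiotic in leptin-injected and 0 in saline-injected mice. Plasmacytoid dendritic cell markers were positive for 2 of 7 in leptin-injected and 4 of 7 in saline-injected mice. The part of these cell types in these results was not tested.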

How the data were processed

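Members, lists, tests and alternatives were chosen with earlier results of these data known. The authors deposited whole-number read counts, not normalised, for 39 libraries by gene symbol. Per the submitters' processing notes the build was mm10 (GRCm38), and HISAT2, featureCounts, FastQC and edgeR 3.42.0 were used. Annotation and strand setting: not given in the sources used here. Per the labels' protocols, 150 ng of total RNA went into each stranded library.

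Counts were fitted for all genes with edgeR 4.0.16 (R 4.3.3) after TMM scaling and filterByExpr. Leptin on water used 27 libraries with set as a term, and the other comparisons one fit of the 24 libraries of set MT or, for set, of the 27 water libraries. SE is the log2 fold change divided by the square root of F. Log2 CPM had a prior count of 2. The procedure was tested on simulated data. Chi-square tests of 109 library pairs from the same group and set found no repeat. DESeq2 1.42.0, other scaling and filters, summed Apol9 counts and single libraries left out were alternatives. Named were the Apol9 pair, called members, the 3 lowest p of each main comparison, 5 fixed examples, the 3 highest and lowest SDs, called genes of other lists, ligands, the 6 genes most like Apol9, and members outlying in the library that was high for both Apol9 genes. Usp18, Rsad2, Bst2, Dhx58, Eif2ak2, Irf9 and Parp12 were further named, and called genes of other lists were named in part, after their values were seen. A result for 1 further gene is not reported here. Sequences were read with Python 3 from RefSeq, and transcripts aligned with Biopython.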

Additional observations from a re-analysis of the deposited data

Results flagged for a closer look

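In each set and group, a member was looked at again where its highest or lowest library stood off by a gap that is large for the group's range (Dixon's 95% critical value). This held for 46 of 240 pairs of member and group on CPM and for 12 on log2 CPM, where chance gives about 1 in 20 groups. Members that move together share the same library, so the pairs are not independent.

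On CPM the library Leptin-antibiotic 2 was the high one for 18 members, and on log2 CPM for 1 (Stat2). In CPM the 18 were Ifit1 (208), Rsad2 (84.05), Ifit3 (51.7), Isg15 (58.2), Usp18 (54.1), Oas3 (163), Oasl1 (189), Oasl2 (225), Oas2 (25.3), Ifih1 (175), Stat2 (115), Trim30a (76.5), Rtp4 (41.3), Gbp7 (33.9), Gbp3 (19.4), Xaf1 (23.1), Apol9a (103) and Apol9b (64.2).

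On CPM in set MT, Leptin-water 8 was the high library for 11 members (2 on log2 CPM), Irf1 (178 CPM), Stat2 (79.3), Ifit1 (60), Trim30a (32.7), Gbp2 (24.02), Rsad2 (22.4), Gbp6 (13.9), Gbp3 (13.2), Oas2 (12.03), Xaf1 (12.03) and Mx2 (5.53). Saline-water 13 was the high library for 9 (4 on log2 CPM), Irf7 (80.9 CPM), Stat2 (77.05), Ifit1 (64.05), Rsad2 (44.4), Ifitm3 (22.95), Bst2 (22.8), Oas1g (21.6), Rtp4 (18.75) and Oas2 (10.3). Leptin-water 11 was low for Oasl1 (57.9 CPM) and high for Ifitm3 (17.0 CPM).

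In set M, Leptin-water 3 was high for Gbp2 (20.6 CPM) and Gbp6 (11.4 CPM), Leptin-water 2 for Ifi27 (22.2 CPM) and Saline-water 4 for Usp18 (11.1 CPM). Saline-water 3 was low for Irf1 (107 CPM) and Saline-water 7 for Eif2ak2 (36.4 CPM).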

How the results depend on the processing

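The count of 5 members higher with antibiotic in leptin-injected mice was 10 with DESeq2, 3 with no filter on low counts, 2 with Apol9a and Apol9b summed to 1 row, 2 without the 6 libraries high for pancreas markers, and 1 to 16 with 1 library left out. Over all genes, 271 were called with no filter, 269 with the pair summed and 205 without the pancreas-high libraries, against 372. The count of 5 for set in saline-injected mice on water was 9 with DESeq2, 3 without the pancreas-high libraries and 2 to 8 with 1 library left out. For set, 3212 of all genes were called with DESeq2 and 2976 without the pancreas-high libraries, against 2822. The count of 13 for antibiotic averaged over injections was 7 to 17 with 1 library left out, 12 with the Apol9 pair summed and 15 with DESeq2. DESeq2 called 1461 of all genes in that contrast, against 1054. With 1 library left out, counts over all genes are given only for Leptin-antibiotic 2, as shares. The counts of 0 in the other comparisons stayed 0 under every alternative run. Signs reversed for leptin on water in set MT alone (Apol9a -0.19, Apol9b -0.20). With 1 library left out, Apol9a for leptin on antibiotic ranged from -0.14 to 0.54 and for set from -0.10 to 0.19, while Apol9b for leptin on water ranged from -0.0178 to 0.19 and for set from -0.25 to 0.17. For leptin on antibiotic, Isg15 (-0.05), Ifit1 (-0.16) and Oas2 (-0.02) were also negative without Leptin-antibiotic 2. The cause was not tested. Over all genes, DESeq2 called 780 against 372 for antibiotic in leptin-injected mice, 183 against 32 in saline-injected mice, 443 against 84 for leptin on antibiotic and 173 against 51 for leptin on water. Whether replicate numbers pair the samples is not settled here. Same-numbered samples correlated over 0.1 in 1 of 6 antibiotic pairs, 1 of 5 set MT water pairs and 3 of 7 set M pairs. Such correlations cannot exclude pairing. With the replicate block 0 members were called for leptin on water or on antibiotic, and 0 and 13 genes in all, with Apol9a at 0.02 and 0.13 and Apol9b at 0.05 and 0.45. The antibiotic comparisons had no block. Library depth put at least 63 counts behind every member value.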
